A study of Drosophila melanogaster with 4 samples.

Results

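The Iroquois complex of Drosophila melanogaster is a stretch of 3L that holds the genes araucan (ara), caupolican (caup) and mirror (mirr). It was examined here for chromatin enriched by an antibody against Distal-less (Dll). Its 61 peaks are those of the deposited list with a midpoint on 3L from 12.55 to 12.76 Mb on FlyBase release 5, out of 16117 peaks in all and 3406 on 3L. The list comes from chromatin immunoprecipitation followed by sequencing (ChIP-seq) of white prepupae, the stage at which the larva stops moving and metamorphosis begins. The groups were 2 Dll ChIP libraries, made with an affinity-purified rabbit polyclonal antibody, and 2 libraries of input DNA, which is chromatin that was not precipitated.

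Both groups came from the same strain, Y cn bw sp, at the same stage, and no tissue is named in the labels. All 4 libraries share the alleles oc[R3.2] and y[1], the alleles bw[1], sp[1], cn[1], Gr22d[1], Gr22b[1] and CG33964[R4.2], and the alleles Rh6[1], GstD5[1], MstProx[1], lab[R4.2] and LysC[1]. The replicates are not said to come from separate collections of animals. The only values are 1 start, 1 end and 1 score per peak for the whole series. There are 0 values per library, so the depth is unknown and no peak can be given an error between replicates or compared between ChIP and input. A peak does not say in which of the animal's cells Dll was bound.

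Dll is a homeodomain transcription factor that the distal parts of the fly's legs and antennae require. The Iroquois proteins Ara, Caup and Mirr are themselves homeodomain transcription factors, of the TALE class. Ara and Caup act in the wing disc as prepattern factors, which set where the proneural genes achaete and scute are switched on and which veins form, and Mirr is known for its role in the dorsal part of the eye. Together they help to specify the notum, the dorsal part of the thorax. The genes are known to share regulatory DNA across the complex, in particular ara and caup.

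In the RefSeq gene table, which is of release 6, all 3 symbols were found, in the order ara, caup and mirr along 3L. On the side of ara the next protein-coding gene is sowah, with the non-coding RNA gene lncRNA:CR43612 between them. Here 4 long non-coding RNA genes lie between caup and mirr, namely lncRNA:CR32111, lncRNA:CR43431, lncRNA:CR44553 and lncRNA:CR44552. Past mirr follow SmD1, which encodes a core protein of the spliceosome's small nuclear ribonucleoproteins, and Ptp69D, which encodes a receptor protein tyrosine phosphatase. Positions of release 6 were not converted to release 5, the release of the peaks. No peak was therefore assigned to ara, caup, mirr or a neighbour, and the limits of the interval were not checked against a release 5 annotation.

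Dll peaks were dense over the Iroquois complex. The 61 peaks covered 37.4 kb of the 210 kb, or 17.8% of its length, and amounted to 29.0 peaks per 100 kb. Scores are the authors' own, from the peak caller MACS, on a scale that is not named, so they rank peaks but give no fold of binding. Those of the complex ran from 7.34 to 493.94 with a median of 21.68 (95% order-statistic interval 16.47 to 25.76). Their widths ran from 207 to 2256 bp with a median of 528 bp (95% interval 441 to 661 bp). Over the other 15554 peaks of the large arms 2L, 2R, 3L, 3R and X, the median score was 16.97 (16.72 to 17.27) and the median width 435 bp (429 to 440 bp). These intervals treat peaks as independent, which they are not, and describe the spread between peaks of 1 list.

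**Figure D1:**
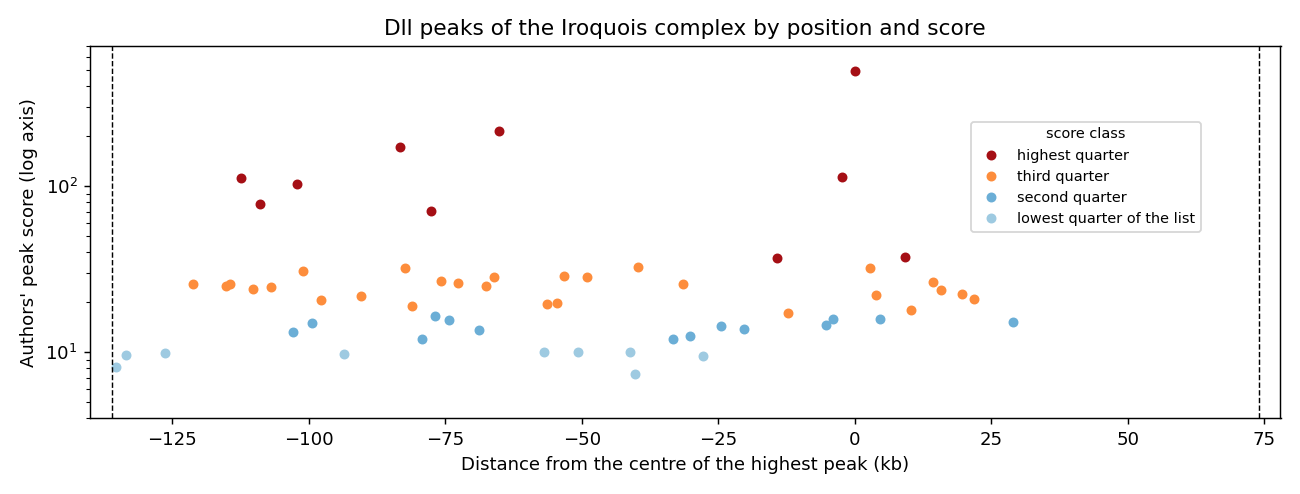
Each point is 1 of the 61 Dll peaks of the Iroquois complex, placed by the distance of its centre from the centre of the highest peak (kb) and by its score (the authors' scale, log axis). Colours give its score class in the whole list, and dashed lines the limits of the interval. The highest peak, at 493.94, stands alone, the next 7 lie between 70.64 and 215.48, and nothing lies in the last 44.8 kb.

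The highest peak of the Iroquois complex lay at 12684907 to 12687162 and scored 493.94. It was also the widest of the complex, at 2256 bp, and ranked 25 of 16117 by score and 255 by width. A peak of 1253 bp at 12683114 to 12684366, which scored 113.47, lay 540 bp before it. With 2 lower peaks on the same side they formed a group from 12680558 to 12687162, in which no gap exceeded 838 bp and peaks covered 68.0% of 6605 bp. The 10 kb bin with the largest covered share of the complex, 59.3%, held this group.

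The second highest peak scored 215.48, at 12620329 to 12621450, and covered 1122 bp, with its centre 65.1 kb from that of the highest one. The third scored 172.23, at 12602352 to 12603197, and was separated by only 50 bp, the shortest gap on the large arms, from a peak of score 32.28. The next by score, after the 113.47 already named, were 111.65 at 12573046 to 12574121 and 103.30 at 12583600 to 12584317. The high peaks thus lay in more than one place rather than at a single site. The 10 highest were completed by 77.83 at 12576605 to 12577571, 70.64 at 12608110 to 12608754, 37.21 at 12694830 to 12695471 and 36.81 at 12671424 to 12672028. Between the eighth and the ninth the score dropped from 70.64 to 37.21, and no peak of the complex lay in between.

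Widths were less uneven than scores. After the highest peak, the widest were a peak of 1845 bp at 12612488 to 12614332, the peak of 1253 bp beside the highest, the peak of 1122 bp at 12620329 and a peak of 1108 bp at 12636355 to 12637462. The 1845 bp and 1108 bp peaks had scores of only 26.13 and 28.30, so that 2 of the 5 widest peaks were not among the 10 highest. The 5 widest made up 20.3% of the length in peaks. At least 1000 bp was reached by 6 of 61 peaks (9.84%), against 12.2% of all peaks on the large arms. At this limit the complex was not richer in broad peaks, although its median width, 528 bp, exceeded the 435 bp of the other peaks. Width and score had a Spearman correlation of 0.755 across its 61 peaks, against 0.720 over the other peaks of the large arms. On the log10 scale Pearson's r was 0.734 in the complex and 0.712 in the others. Both measures of a peak come from the same reads, and peaks are not replicates, so these correlations only describe the list.

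The peaks of the Iroquois complex crowded into the upper middle of the range of scores. The list was divided at its quartiles, 11.72, 17.27 and 35.28, into 4 score classes, a division chosen after the values were seen. The class from 17.27 to below 35.28 held 28 of the 61 peaks, or 45.9% (exact 95% binomial interval 33.1 to 59.2%), against 24.8% of all peaks on the large arms. The highest class, from 35.28 up, held 10 of 61 (16.4%), against 24.7% on the large arms. The lowest class held 9 (14.8%), against 25.2%, and the class from 11.72 to below 17.27 held 14 (23.0%), against 25.3%. With the list cut into 10 equal parts, the fullest part in the complex, picked for that reason, ran from 21.68 to 29.26. It held 17 of 61 peaks (27.9%), against 9.84% of the peaks of the large arms. The parts next to it held 7 (11.5%) and 6 (9.84%), against 10.1% and 9.64% on the large arms. The highest 10% of the list, from 85.2 up, included 6 peaks of the complex (9.84%), against 10.1% of those of the large arms. A larger share of very high peaks was thus not seen in the complex.

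Within the third class the Iroquois peaks had a median width of 656 bp, against 511.5 bp for other peaks of the large arms with scores in the same range (interquartile range 377 to 708 bp). Of the 28 peaks, 19 were wider than that 511.5 bp. In the highest class the medians were 906.5 bp and 830 bp, in the second 372.5 bp and 357 bp, and in the lowest 248 bp and 275 bp. Wider than the median of the other peaks of their class were 6 of 10 peaks in the highest class, 7 of 14 in the second and 3 of 9 in the lowest. Whether the classes differ in this was not tested.

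**Figure D2:**
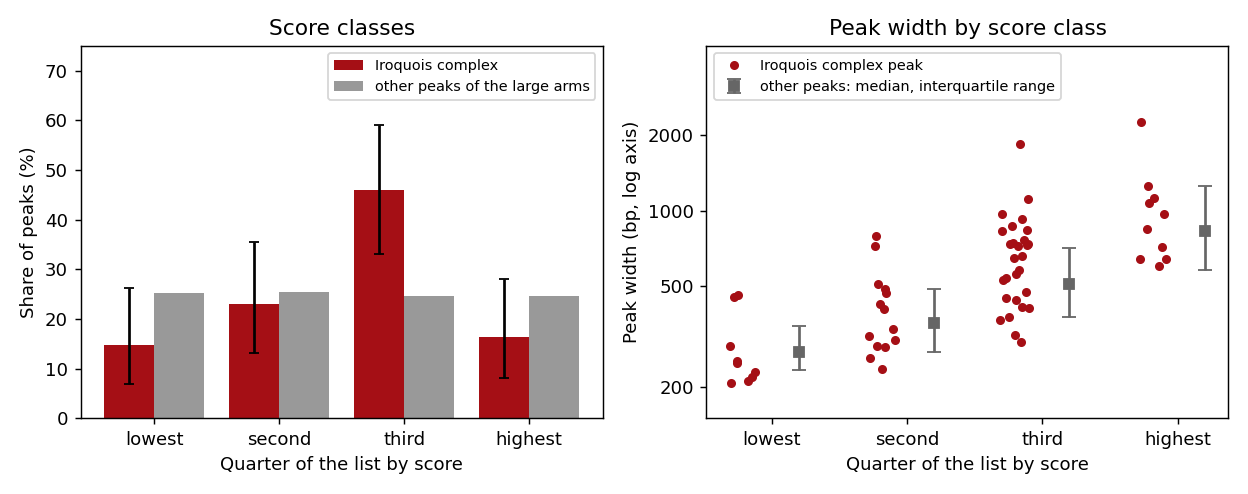
Left, the share of peaks (%) in each of 4 classes of the list by score, for the Iroquois complex (bars with exact 95% binomial intervals, n = 61) and for the other 15554 peaks of the large arms; the third class stands at 45.9% against 24.7%. Right, the width (bp, log axis) of each Iroquois peak by class, beside the median and interquartile range of the other peaks; most Iroquois peaks of the third class lie above the median of 511.5 bp.

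Neighbouring peaks in the Iroquois complex were closer to each other than on the large arms as a whole. The median of the 60 gaps between its peaks was 1144.5 bp and the longest was 7527 bp. The median over the 15610 gaps of the large arms was 2180 bp. The gap after the last peak of the complex, described below, is not among the 60. A gap of at most 1000 bp was found 26 times (43.3%), against 33.5% on the large arms, and one of at most 5000 bp 51 times (85.0%), against 68.2%. In the 52 other windows with 51 to 71 peaks, gaps of at most 1000 bp averaged 43.9% ± 7.83 (SD between windows). The complex was thus not more closely spaced than windows of similar peak number. Joined at gaps of 1000 bp or shorter, the 61 peaks formed 35 units, of which 20 were single peaks, 8 were pairs, 4 held 3 peaks and 2 held 4. The only group of 5 peaks ran from 12608110 to 12614332, where peaks covered 69.5% of 6223 bp. It holds the 1845 bp peak, and its scores ran from 15.56 to 70.64.

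Divided at gaps longer than 6000 bp, a limit chosen after the gaps were seen, the Iroquois complex fell into 5 stretches of 6 or more peaks. Before them lie the first 2 peaks of the complex, with scores of 8.18 and 9.61, and after them its last single peak, with 15.22. The first stretch, 12559615 to 12595927, held 15 peaks with a median score of 24.73, of which 3 were in the highest class of the list. The next, 12602352 to 12621450, was the most densely covered of the longer ones, with 13 peaks over 49.1% of 19.1 kb. Its median score was 26.13 and its 3 peaks of the highest class scored 172.23, 70.64 and 215.48. The short stretch from 12628978 to 12637462 had 6 peaks over 43.9% of its 8.49 kb, but none above 28.90.

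The median and the highest score of the next stretch were lower than in the 3 stretches with 13 or 15 peaks. From 12644672 to 12673928, 11 peaks covered 16.9% of 29.3 kb, with a median score of 13.83 and a highest score of 36.81. It includes the lowest peak of the complex, 7.34 at 12645623 to 12645912. The last stretch, 12680558 to 12708040, held 13 peaks over 35.4% of 27.5 kb, with a median score of 22.42. It contains the highest peak and its 113.47 neighbour, and its lowest peak scored 14.66. The peaks of the highest class of the list thus numbered 3, 3, 0, 1 and 3 along the 5 stretches.

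**Figure D3:**
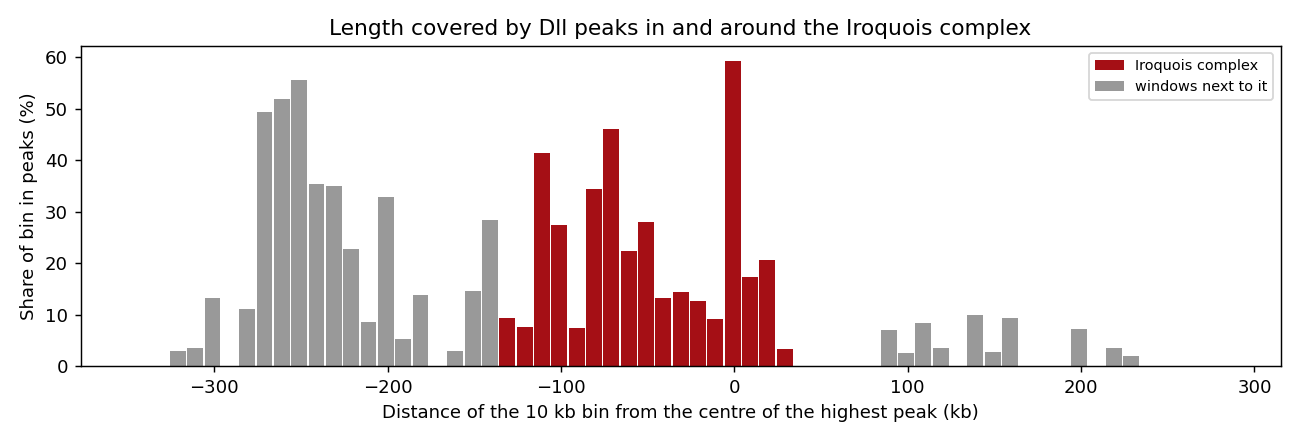
The share of each 10 kb bin covered by Dll peaks (%), by distance from the centre of the highest Iroquois peak (kb), for the 21 bins of the Iroquois complex and for the windows of the same length on both sides. The bins of the complex reach 59.3%, its last 4 bins hold no peak, and covered length is high again in the window on the low-coordinate side and low on the other.

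The peaks of the Iroquois complex stopped short of its limit on the high-coordinate side, which in the gene table is the side of mirr. The last peak lay at 12714828 to 12715165, and the next one outside began at 12779236, a gap of 64.1 kb. By number, 198 of 15610 gaps on the large arms (1.27%) were as long or longer. That share counts gaps and not their length, and most gaps are short. It does not say how often an interval would end in so long a gap. The last 44.8 kb of the interval, or 21.3% of its length, therefore held 0 peaks, and 4 of its 21 bins of 10 kb were empty. From the first to the last peak of the complex the covered share was 22.7%. Whether reads could be placed in the empty part was not tested.

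On the low-coordinate side the peaks went on. The first peak inside, 12550531 to 12550778 with a score of 8.18, followed 2369 bp after the last peak outside, 12547785 to 12548161 with 22.28. The Iroquois complex had 61 peaks over 17.8% of its length, and the adjoining window of the same length on this side, 12339999 to 12549999, held 56 peaks over 18.4%. On the high-coordinate side, the window from 12760001 to 12970001 held 14 peaks over 2.68%. The complex was thus close to one neighbour and far above the other. The 2 windows farther out on the low-coordinate side held 18 and 30 peaks, and those on the high-coordinate side held 35 and 36. The median score was 21.68 in the complex and 21.98 in the low-coordinate neighbour, and the share of peaks of the third class was 45.9% in the complex and 46.4% in that neighbour. The highest scores differed, with 493.94 in the complex and 293.37 in the neighbour.

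Among windows of the same length, the Iroquois complex ranked high in peak number, covered length and highest score. It held 61 peaks, against 27.6 ± 16.3 (SD between windows) in the 561 other windows of 210 kb on the large arms. It exceeded 539 of them (96.1%), equalled 4 and was below 18. Of the 22 windows with at least as many peaks, 8 were on 3R, 7 on 2R, 5 on 3L, 2 on 2L and 0 on X. Its covered share of 17.8% exceeded 534 of 561 windows (95.2%), whose mean was 7.74% ± 5.47. Its highest score of 493.94 exceeded those of 538 of the 561 windows (95.9%). The median over all 561 was 187.89, with the 4 windows without a peak counted as 0. These ranks describe 1 list and carry no test, since windows are not replicates and adjoining ones are not independent.

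**Figure D4:**
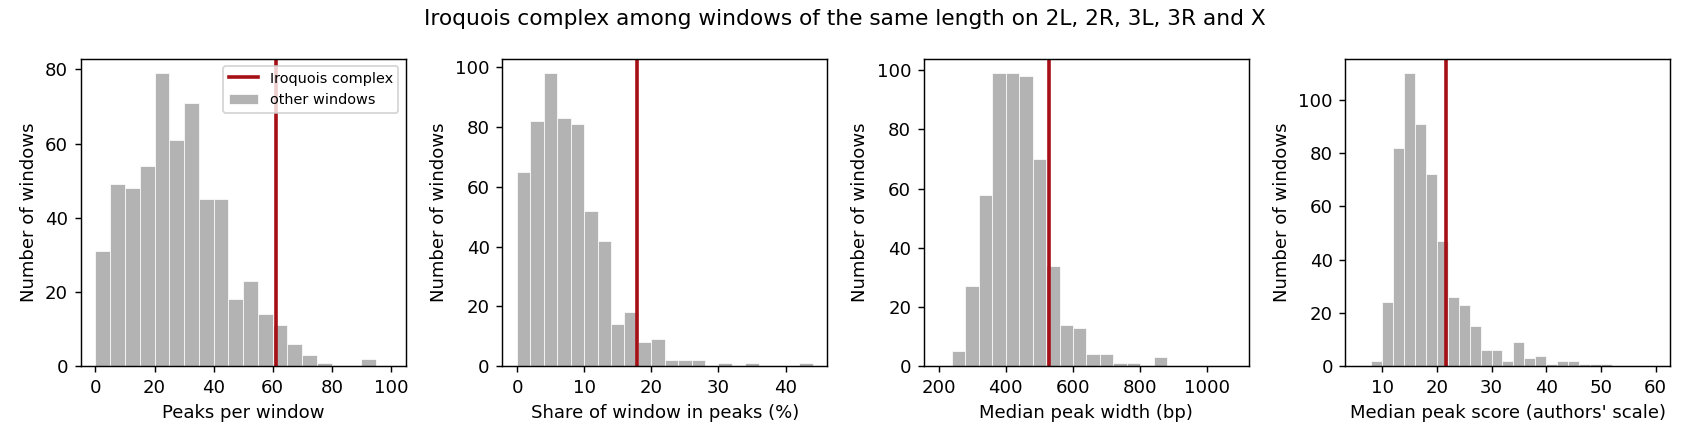
Histograms of peaks per window, share of the window in peaks (%), median peak width (bp) and median peak score over the other windows of 210 kb, with the Iroquois complex as a line. The first 2 panels hold 561 windows and the last 2 the 530 windows with at least 5 peaks. The complex lies in the upper tail of peak number (61) and covered share (17.8%) and less far out in median width (528 bp) and median score (21.68).

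Median width and median score stood out less. Over the 530 other windows with at least 5 peaks, the 528 bp of the Iroquois complex exceeded 469 (88.5%), and its median score of 21.68 exceeded 422 (79.6%). This rank in median score did not hold among the highest 50% of the list by score, where the complex, with a median of 26.31, exceeded only 12.2% of windows. Its widest peak, 2256 bp, exceeded that of 402 of 561 windows (71.7%). The 10 peaks of the highest score class exceeded the number in 428 of 561 windows (76.3%). The share of peaks in the third class, 45.9%, exceeded that of 521 of the 530 windows (98.3%), whose mean was 24.0% ± 9.57. The score classes were chosen after the values were seen, so the high rank of the third class is no independent result. The complex thus ranked higher by how many peaks it had than by how many of them were strong.

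Few windows with at least as many peaks as the Iroquois complex reached its highest score. Of the 22 windows with at least as many peaks, 1 also had at least as high a highest score (4.55%). Among all other windows it was 23 of 561 (4.10%). With only 1 such window, these shares cannot be called alike or different. The window in question was on 2L, from 420103 to 630103, also held 61 peaks and had a highest score of 537.05. Both limits are values of the complex itself, and the count depends on them. Of 52 windows with 51 to 71 peaks, 6 had a higher highest score than the complex and 46 a lower one (88.5%). Over all 561 windows, 95.9% had a lower one. The median of the highest scores was 283.4 in the 52 windows, against 187.89 over all 561, so windows of similar peak number tended to higher top scores. The highest score class held 16.4% of the peaks in the complex and 36.1% in the window of 2L, and the third class 45.9% in the complex and 18.0% in the window of 2L. Both windows were thus alike in number but not in the make-up of their scores.

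**Figure D5:**
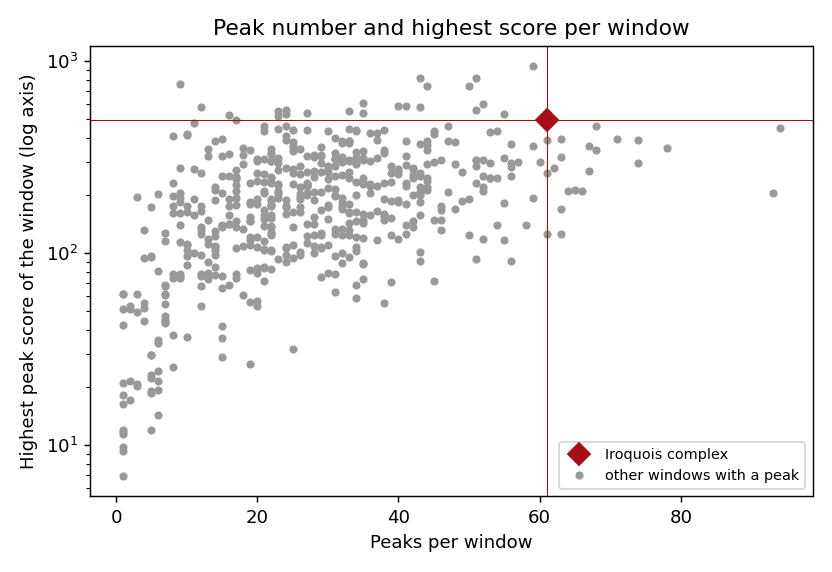
Peaks per window of 210 kb against the highest peak score of the window (the authors' scale, log axis) for the Iroquois complex (diamond) and the other windows with a peak (points). One point lies at or beyond the complex in both, the window of 2L with 61 peaks and a highest score of 537.05.

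Against windows of similar peak number, the Iroquois complex lay near the middle in covered share and in short gaps, and toward an end in its scores and median width. In 52 windows with 51 to 71 peaks, a range chosen after the values were seen, the covered share averaged 17.8% ± 4.93 (SD), and the complex, also at 17.8%, exceeded 30 of them. Gaps of up to 1000 bp made up 43.3% in the complex and 43.9% ± 7.83 in these windows. Its highest score exceeded 46 of the 52, its median width 45 and its median score 43. The number of peaks in the highest class, 10 in the complex, was exceeded by 36 of the 52 windows, equalled by 8 and undercut by 8. The share of the third class, 45.9%, was exceeded in 1 of the 52 windows, the adjoining window on the low-coordinate side with 46.4%, and averaged 27.9% ± 6.37 over all 52. Most of these dense windows thus held more strong peaks than the Iroquois complex. All but 1 had a smaller share of the third class, which comes from a division chosen after the values were seen.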

How the data were processed

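The deposited list holds peaks in GFF version 3, which counts positions from 1, on FlyBase release 5, per the file headers. Per the submitters' processing notes, the tools were MACS2, BWA and CASAVA (1.7.0.3 and 1.7.0.2), and the build was BDGP 5. Not given in the sources used here are the threshold of the caller, the pooling of replicates and the versions of MACS2 and BWA. The authors' score per peak was used as deposited.

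Peaks were assigned to an interval by the midpoint of start and end, and covered length was counted within its limits. Windows of 210 kb were laid end to end, on 3L outward from the Iroquois complex and on 2L, 2R, 3R and X from the first peak. Only whole windows were kept. Medians per window needed at least 5 peaks. Gaps were counted between peak edges. Named peaks are the 10 highest, the 5 widest, those at the limits, and those that bound long gaps and tight groups. The lowest peak, and the comparison window on 2L, were picked after their values were seen. The interval, the genes and the measures were chosen with earlier results of these data known. With no values per library, no test was run. Ranks and intervals cover this list only. Alternatives were another grid, other sets of windows, shifted intervals, merged peaks and stricter score limits. Calculations used Python 3.11.15, pandas 2.3.3 and scipy 1.17.1, and the functions were tested on simulated lists.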

Additional observations from a re-analysis of the deposited data

How the results depend on the processing

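Of 79 alternative values for 12 results, 54 stayed within the interval of the value reported or, for the peak number, within 1.5 times, and 25 moved. For the covered share this interval, 17.7 to 18.0%, treats each base pair as independent, so small shifts counted as moved. The binomial intervals of the ranks treat windows as independent, which they are not. The counts of 54 and 25 thus depend on these limits and do not measure stability. Merging peaks within 1000 bp left 35 regions over 24.0% of the Iroquois complex, with a median width of 790 bp, and by construction 0% of gaps of up to 1000 bp. The highest 50% of the list by score left 38 peaks over 13.8%, with medians of 720 bp and 26.31, and the highest 25% left 10 peaks over 4.82%, with medians of 906.5 bp and 107.48 and 11.1% short gaps. Moving the interval by 10 kb gave a covered share of 19.2% (lower coordinates) or 17.4% (higher), and ending it at the first and last peak gave 22.7%, a setting chosen after the values were seen. Ranks moved mainly with the score limit. In the highest 50% the complex exceeded 98.2% of windows in peak number, 71.6% in median width and 12.2% in median score. In the highest 25% it exceeded 76.3% in number, 76.5% in covered share, 61.0% in median width and 87.8% in median score. The high rank in number was thus kept among the highest 50% and not among the highest 25%. The rank in median width was 92.4% on 3L alone and 81.7% after merging. The share of peaks in the third score class stayed between 45.7% and 48.3% in 4 alternatives, also chosen after the values were seen. Causes of these changes other than the removal or joining of peaks were not tested. No paired analysis was possible because the list has no values per library, and for the same reason no replicate could be left out. Positions relative to ara, caup and mirr were not analysed here.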
